A study of Mus musculus with 4 samples.

Results

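Lipoproteins carry triglyceride and cholesterol through blood and interstitial fluid. Lipoprotein lipase, made by Lpl, releases fatty acids from their triglyceride, and it becomes active only after folding in the endoplasmic reticulum with the help of lipase maturation factor 1, made by Lmf1. Apolipoprotein E (Apoe) and clusterin (Clu, also called apolipoprotein J and a secreted chaperone) are proteins of lipoprotein particles, the very low density lipoprotein receptor (Vldlr) and apolipoprotein E receptor 2 (Lrp8) take up or bind such particles, and scavenger receptor B1 (Scarb1) takes cholesteryl ester from high density lipoprotein (HDL). These 7 genes are described here in libraries labelled as gonadotropes, the pituitary cells that secrete luteinizing and follicle-stimulating hormone.

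The 7 genes are rows of a deposited table of 54532 genes, matched by identifier to symbols in GENCODE M21. They were chosen by their measured values: Lpl and Clu because their counts are lower in the knockout libraries, and the other 5 for comparison with them as genes of the same pathway. The comparison of knockout with control was thus used to choose them, so their values are a description and carry no test. All 7 passed the filter on low counts, which left 17349 genes.

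The data are poly(A) RNA sequencing of sorted gonadotropes from male mice of mixed strain, 10 to 12 weeks old. The controls are labelled only as control, and the other group as a conditional Gata2 knockout (cKO), which the series title calls gonadotrope-specific. Sample labels name purified gonadotropes, while the series design line speaks of pituitaries. The sources used here do not give the Cre line, the Gata2 allele, the full genotype of the controls or whether animals were pooled for a library. Each group has 2 libraries. Whether these came from separate animals is not stated, so errors reflect differences between libraries, which may be technical. A standard error (SE) here comes from a fit that also draws on the spread of the other genes. It is thus not the spread of that gene alone.

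Total counts were 10646909 to 21135301 per library. Gata2, which codes for a zinc-finger transcription factor, stood at 537 and 526 CPM in controls and at 221 and 214 CPM in cKO. CPM are counts scaled by TMM to a library of 1000000 counts. The gonadotrope markers Lhb, Fshb, Cga, Gnrhr, Nr5a1 and Foxl2 were all present and summed to 13840 to 15281 CPM in controls and 6861 to 8101 CPM in cKO. The corticotrope and melanotrope list, led by Pomc, summed to 7528 to 10201 CPM in controls and 6338 to 7507 CPM in cKO, so the libraries also held RNA of other pituitary cells. In such bulk libraries, fewer cells of a type and less RNA per cell cannot be told apart.

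Sequences of these genes are shown for what they say about the counts and the enzyme. Lipoprotein lipase is a serine hydrolase whose active-site serine lies in a Gly-X-Ser-X-Gly motif. The stretch of Lpl below, from the GENCODE M21 transcript, lies in exon 4 of 10 at chr8:68894651-68894695 (mm10, plus strand), and its capitals mark the 5 codons of the motif. It is the first of 2 matches to that pattern in the coding sequence.

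Lpl: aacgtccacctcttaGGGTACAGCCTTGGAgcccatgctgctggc

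Vldlr and Lrp8 are paralogues, and reads that match both could be shared between them. The longest identical run of their coding sequences was 19 bases. These coding sequences are 2619 bases (Vldlr) and 2865 bases (Lrp8), while the merged exons are 10068 and 10514 bases. The rest of the exons was not compared. Neither gene had a fractional count in any library, and the same held for the other 5 genes. How multiply matching reads were counted is not stated.

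Because the deleted gene is a GATA factor, the 250 bases before annotated start sites were searched for the hexamer AGATAA, the hexamer TGATAA, the hexamer AGATAG and the hexamer TGATAG on both strands, with overlapping matches counted. RefSeq windows (GRCm38.p6) were matched for 4 of the 7 genes: Apoe, Lmf1, Lrp8 and Vldlr. Of their 9 windows 2 held a hexamer, 1 of Apoe and 1 of Vldlr, against 26.5% of all 32851 windows. The Vldlr window is shown because it holds a match and ends at the gene's annotated start (chr19:27216234-27216483, plus strand). Its capitals mark the match, which is TGATAG read on the other strand. A match is a description of letters and not a binding site.

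Vldlr: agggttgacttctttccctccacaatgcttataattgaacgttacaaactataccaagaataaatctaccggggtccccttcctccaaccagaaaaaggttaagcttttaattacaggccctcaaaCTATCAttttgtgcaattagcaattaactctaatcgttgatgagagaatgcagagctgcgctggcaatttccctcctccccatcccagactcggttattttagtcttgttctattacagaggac

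Lpl transcripts were 9.40-fold less abundant in the cKO libraries than in the control libraries. Lpl (ENSMUSG00000015568.16, mm10 chromosome 8, 68880491 to 68907448) had 526 and 898 counts in control replicates 1 and 2, and 73 and 88 counts in cKO replicates 1 and 2. These are 47.8 and 42.9 CPM in controls and 4.69 and 4.95 CPM in cKO. Both cKO libraries lay far below both controls, and the libraries within each group were close to each other. The group means were 45.4 ± 3.48 and 4.82 ± 0.178 CPM (SD, n = 2 each), and the log2 fold change, cKO minus control, was -3.23 (SE 0.39), which leaves 10.6% of the control level. Of the 12695 tested genes whose average log2 CPM reached 2, Lpl had the 33rd lowest log2 fold change.

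Clu was the most abundant of the 7 genes and was also lower in cKO. Clu (ENSMUSG00000022037.15, chromosome 14, 65968483 to 65981547) had 546 and 471 CPM in controls and 217 and 242 CPM in cKO, from 3376 to 9849 counts. The groups did not overlap. The means were 508 ± 53.4 and 229 ± 17.5 CPM (SD, n = 2 each), and the log2 fold change was -1.15 (SE 0.15), which leaves 45.1% of the control level. The difference was larger than the spread within either group, as it was for Lpl, and both genes were chosen for being lower.

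**Figure D1:**
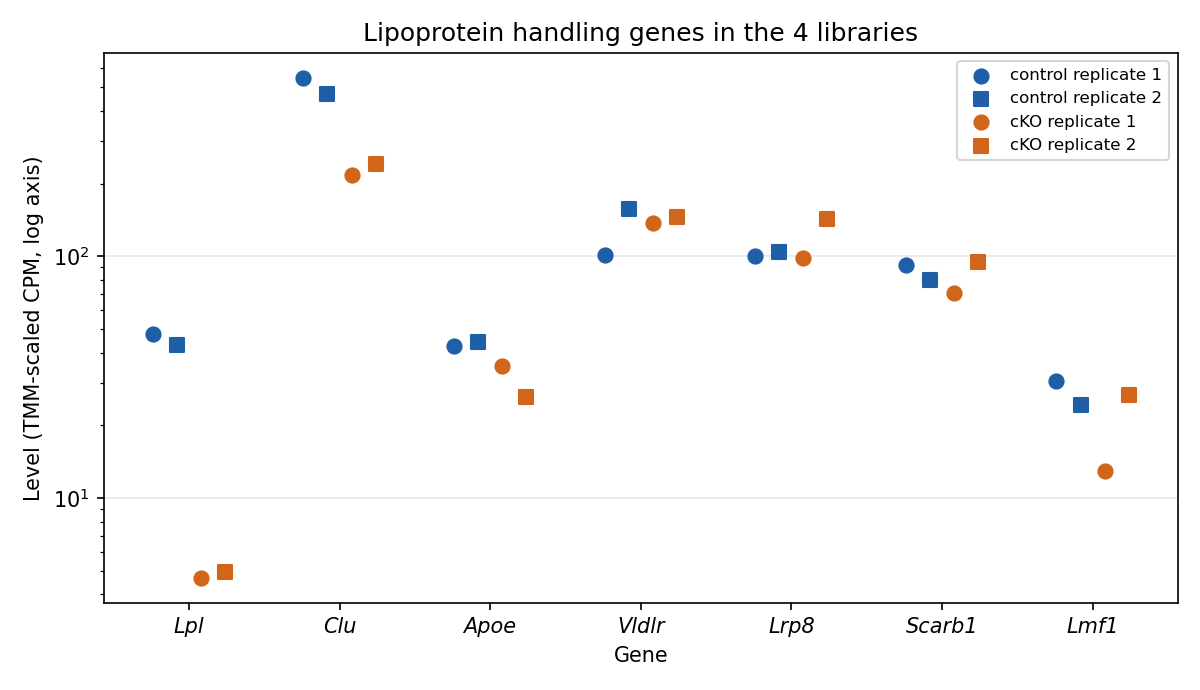
Level of the 7 genes in each library, in TMM-scaled CPM on a log axis, with 1 point per library (blue, controls; orange, cKO; circles, replicate 1; squares, replicate 2). Lpl stands at 42.9 to 47.8 CPM in controls and at 4.69 to 4.95 CPM in cKO, and Clu also stands lower in cKO, while the points of Vldlr, Lrp8, Scarb1 and Lmf1 overlap between groups.

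Apoe, the other particle protein among the 7, differed less. Apoe (ENSMUSG00000002985.16, chromosome 7, 19696109 to 19699188) had 42.7 and 44.2 CPM in controls and 35.1 and 26.3 CPM in cKO. Both cKO libraries were below both controls, with cKO replicate 2 the lowest. Its log2 fold change was -0.50 (SE 0.31), and it was -0.31 without cKO replicate 2 and -0.72 without cKO replicate 1.

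Lmf1, whose product the lipase needs for folding, gave no stable difference. Lmf1 (ENSMUSG00000002279.18, chromosome 17, 25579085 to 25662826) had 30.6 and 24.3 CPM in controls and 13.0 and 26.6 CPM in cKO. The low level was in cKO replicate 1 alone, and cKO replicate 2 lay between the controls. The log2 fold change of -0.47 (SE 0.46) became -0.04 without cKO replicate 1 and -1.08 without cKO replicate 2.

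For the receptors Vldlr, Lrp8 and Scarb1, the libraries of the groups overlapped. Vldlr (ENSMUSG00000024924.14, chromosome 19, 27216484 to 27254231) had 102 and 158 CPM in controls and 137 and 145 CPM in cKO, so both cKO libraries lay between the controls. Its log2 fold change was 0.12 (SE 0.24), and it was -0.16 without control replicate 1 and 0.47 without control replicate 2.

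Lrp8 (ENSMUSG00000028613.14, chromosome 4, 107802261 to 107876840) had 101 and 104 CPM in controls and 98.1 and 143 CPM in cKO. Only cKO replicate 2 stood apart, above the other 3 libraries. The log2 fold change was 0.23 (SE 0.23), and -0.06 without that library. The antisense genes Lrp8os1 and Lrp8os2 overlap Lrp8. Lrp8os1 held 0 counts, and Lrp8os2 held 45 and 25 counts in controls and 0 in both cKO libraries. Lrp8 itself held 1108 to 2547 per library, and no source used here says whether counting used strand.

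Scarb1 (ENSMUSG00000037936.15, chromosome 5, 125277087 to 125341094) had 92.3 and 79.5 CPM in controls and 70.3 and 94.9 CPM in cKO. The cKO libraries were the lowest and the highest of the 4. The log2 fold change was -0.06 (SE 0.24). With 2 libraries a group, these errors do not show that the levels of the receptors were the same.

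**Figure D2:**
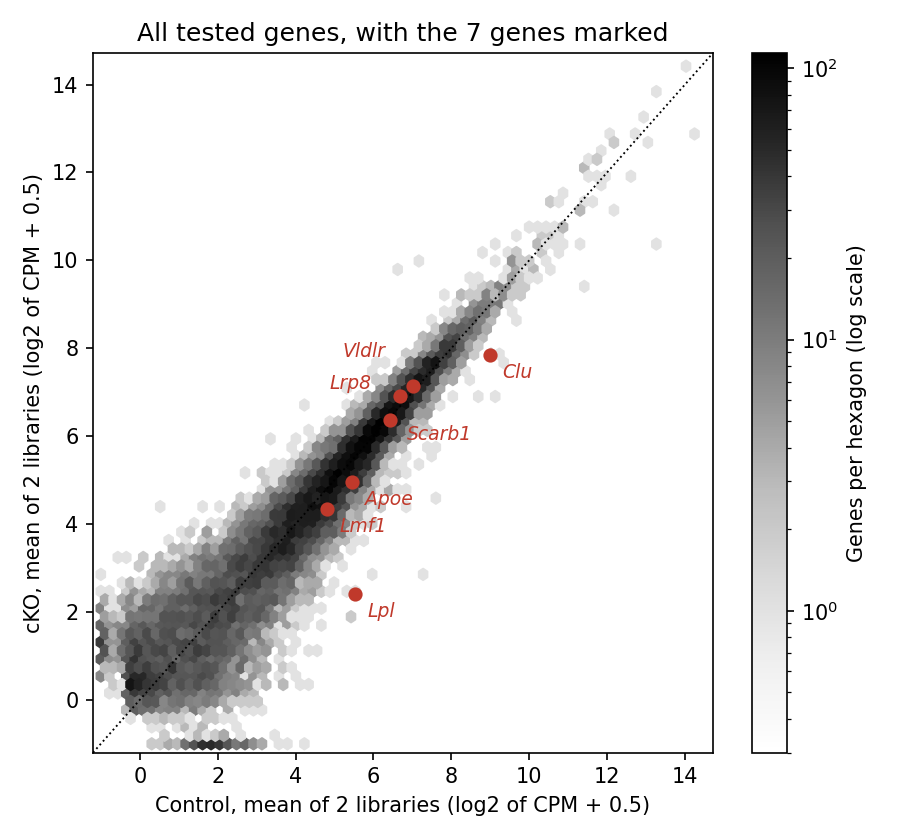
Mean level of each of the 17349 tested genes in control (horizontal axis) and cKO (vertical axis), as log2 of CPM + 0.5, with darker hexagons holding more genes and the dotted line marking equal levels. Lpl lies farthest from the line among the 7 genes (red), Clu is the next, and the other 5 lie within the dense band.

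Of the 7 genes 0 were called by edgeR's quasi-likelihood test at an adjusted p under 0.05, a threshold that 10 genes or 0.0576% of those tested passed. At an unadjusted p under 0.05, Lpl and Clu were lower and 0 were higher, where 3.88% of the genes tested were lower and 3.15% higher. DESeq2 and limma-voom each called Lpl and Clu at an adjusted p under 0.05, as they did 5.44% and 1.48% of the genes tested. In 3 of the 7 genes (Lpl, Clu and Apoe) both cKO libraries lay below both controls, which held for 19.3% of the genes tested. Since Lpl and Clu were selected on this comparison, these counts only describe them.

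Levels of different genes were compared per length, as counts per kilobase of merged exons scaled to 1000000 per library (TPM). Clu was the highest of the 7 in every library, at 390 to 483 TPM in controls and 176 to 182 TPM in cKO. Apoe followed in both controls (58.9 and 60.8 TPM), and in cKO it had 45.7 and 31.8 TPM. Vldlr (30.7 and 44.6 TPM), Scarb1 (33.0 and 26.7 TPM) and Lrp8 (29.1 and 28.3 TPM) overlapped in the controls, so their order there is within the spread.

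The low end of this order differed between the groups. Lpl stood above Lmf1 in both controls (13.9 and 11.7 against 6.84 and 5.10 TPM) and below it in both cKO libraries (1.25 and 1.22 against 2.66 and 5.07 TPM). Clu exceeded Lpl 34.8 and 33.4 times in the controls and 141 and 149 times in cKO. Vldlr exceeded Lpl 2.21 and 3.82 times in the controls and 30.4 and 30.5 times in cKO. With the median transcript length in place of merged exons, Clu was still the highest and Lpl and Lmf1 changed places in the same way, but Scarb1 moved from 29.8 to 121 TPM in controls and stood in the second place.

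**Figure D3:**
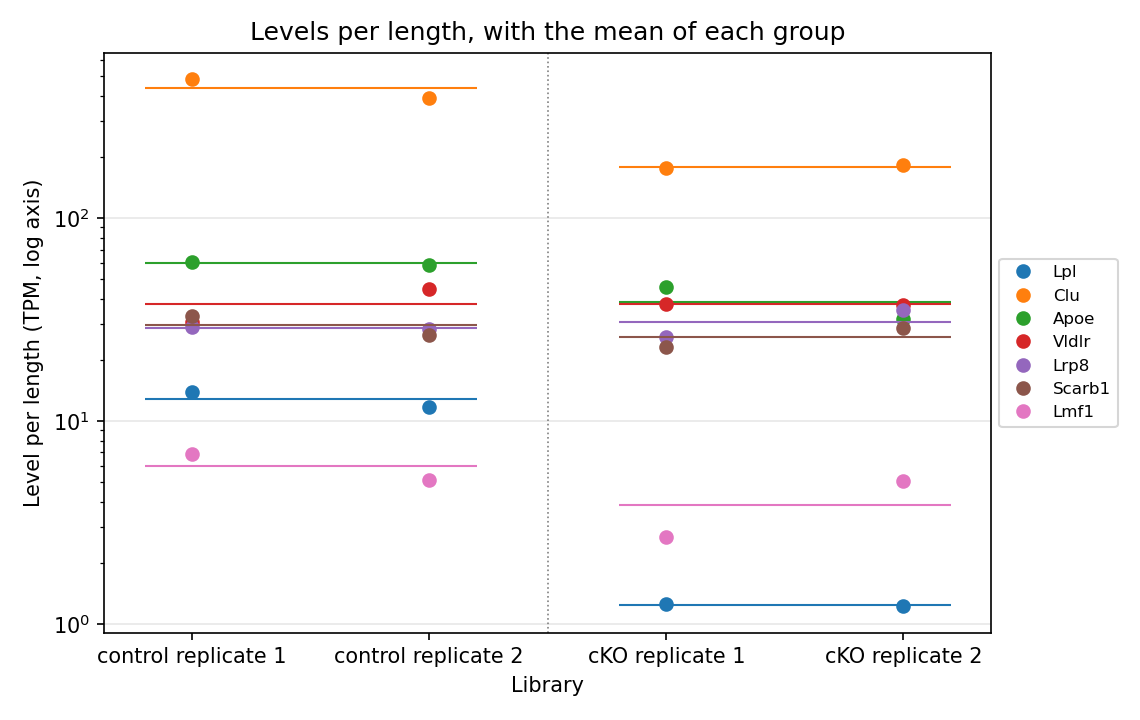
Level per length of the 7 genes in each library, in TPM on a log axis, with a line at the mean of each group. Clu is highest in all 4 libraries, and Lpl lies above Lmf1 in the controls and below it in cKO.

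Log2 fold changes are written below as the value with its SE. Other genes of lipoprotein and lipid handling came from 7 lists grouped by role, which hold 105 genes including the 7 above. Of the other 98 genes 78 were tested, and 40 were lower and 38 higher in cKO, with a median log2 fold change of -0.01 against 0.03 for all genes tested. Of all 17349 genes tested 8250 were lower and 9099 higher, which is the background for the counts by list below. By edgeR 0 of the 78 passed the adjusted threshold. At an unadjusted p under 0.05, 6 were lower (7.69%, against 3.88% of all genes tested) and 3 were higher (3.85%, against 3.15%). This split changed with the library left out, and the median of the 78 then ran from -0.14 to 0.20. DESeq2 called 8 of the 78 (10.3%, against 5.44% of all genes tested) and limma-voom 3 (3.85%, against 1.48%). The 6 lower genes and the 8 called by DESeq2 include Dab2, which passed the filter on low counts through the controls alone. Both cKO libraries lay below both controls for 15 of them (19.2%, against 19.3%) and above for 12 (15.4%, against 19.7%).

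Among genes that act on the lipase itself, Sel1l was lower in both cKO libraries. Sel1l codes for an endoplasmic reticulum adaptor needed for lipase maturation, and had 258 and 289 CPM in controls and 156 and 176 CPM in cKO, a log2 fold change of -0.72 (SE 0.16). Lipg, for endothelial lipase, had 0.182 and 6.83 CPM in controls and 16.1 and 9.33 CPM in cKO (1.84, SE 1.36), with 2 counts in control replicate 1. Sdc1, for a cell surface heparan sulfate proteoglycan, had -0.56 (SE 0.43). Gpihbp1, the endothelial protein that holds lipoprotein lipase at the capillary wall, had 0 counts in every library, as did Apoc2, for the activator of the lipase. A count of 0 allows up to 0.143 to 0.273 CPM at these depths (3 counts per library, counting error only).

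Among particle proteins and lipid loading, Abcg1, which exports cholesterol to HDL, had 109 and 81.0 CPM in controls and 50.3 and 50.8 CPM in cKO (log2 fold change -0.91, SE 0.24). In this list 11 of 12 tested genes were lower in cKO, Clu and Apoe included, and the median of the list was -0.47. Of all 17349 genes tested 8250 were lower. Clu was chosen for being lower, and some of the 11 differed by less than their SE, such as Abca7 (-0.06, SE 0.20) and Abca1 (-0.12, SE 0.34). Apoa1 and Pltp, among the 11, and Apoa4, the 1 that was higher, had 0 counts in control replicate 1 and cKO replicate 2. Apob, for the core protein of liver and gut particles, had 0 counts in 3 libraries and 20 in cKO replicate 2. Lcat, for the plasma enzyme that esterifies cholesterol, had 5.98 and 3.48 CPM in cKO, below both controls.

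In the LDL receptor family 9 of 15 tested genes were lower and 6 higher, with a median of -0.03. Sorl1, a sorting receptor of this family, had 332 and 411 CPM in controls and 237 and 200.3 CPM in cKO (-0.77, SE 0.18). Lrp5, a co-receptor for Wnt ligands, had 139 and 146 CPM in controls and 184 and 213 CPM in cKO (0.48, SE 0.17). Lrp10 had -0.39 (SE 0.20) and Lrp1b -0.72 (SE 0.37).

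Adaptors and chaperones of these receptors were lower in 7 of 11 tested genes, with a median of -0.40. Lrpap1 codes for the chaperone that keeps ligands off newly made receptors, and had 301 and 236 CPM in controls and 157 and 149 CPM in cKO (-0.81, SE 0.18). Dab2, an endocytic adaptor, had 100 and 114 counts in controls and 0 in both cKO libraries. Against a floor of 3 counts per library it was at least 40.2-fold lower. That bound covers counting error and not the spread between libraries. Dab2 passed the filter on low counts through the controls alone, so these values only describe it. Sorcs2, a sortilin-related receptor, had -1.25 (SE 0.35), and Sort1, for sortilin, -0.40 (SE 0.19).

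Scavenger receptors, lipid storage genes and lipid-sensing factors had medians above 0. The median of all genes tested was also above 0, at 0.03. Of 19 tested genes of fatty acid uptake and storage 12 were higher in cKO, with a median of 0.16. Pnpla2, for the lipase that starts the breakdown of stored triglyceride, had 76.7 and 117 CPM in controls and 164 and 150.3 CPM in cKO (0.70, SE 0.24). Lipe, for hormone-sensitive lipase, had 13.7 and 26.5 CPM in controls and 38.7 and 42.2 CPM in cKO. Acsl1 had 0.49 (SE 0.26) and Slc27a1, for a fatty acid transporter, 0.27 (SE 0.19).

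Of 5 tested scavenger and HDL receptor genes, Lsr had 0.27 (SE 0.28), Stab1 0.47 (SE 0.92) and Stab2 0.16 (SE 0.51). Cd36, for a fatty acid and lipoprotein receptor, had 0 counts in every library. Among 11 lipid-sensing transcription factors the median was 0.07, and Rxra had 0.23 (SE 0.27), Rxrg 1.03 (SE 1.26), Nr1h3 1.30 (SE 1.58) and Ppard 0.16 (SE 0.21).

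**Figure D4:**
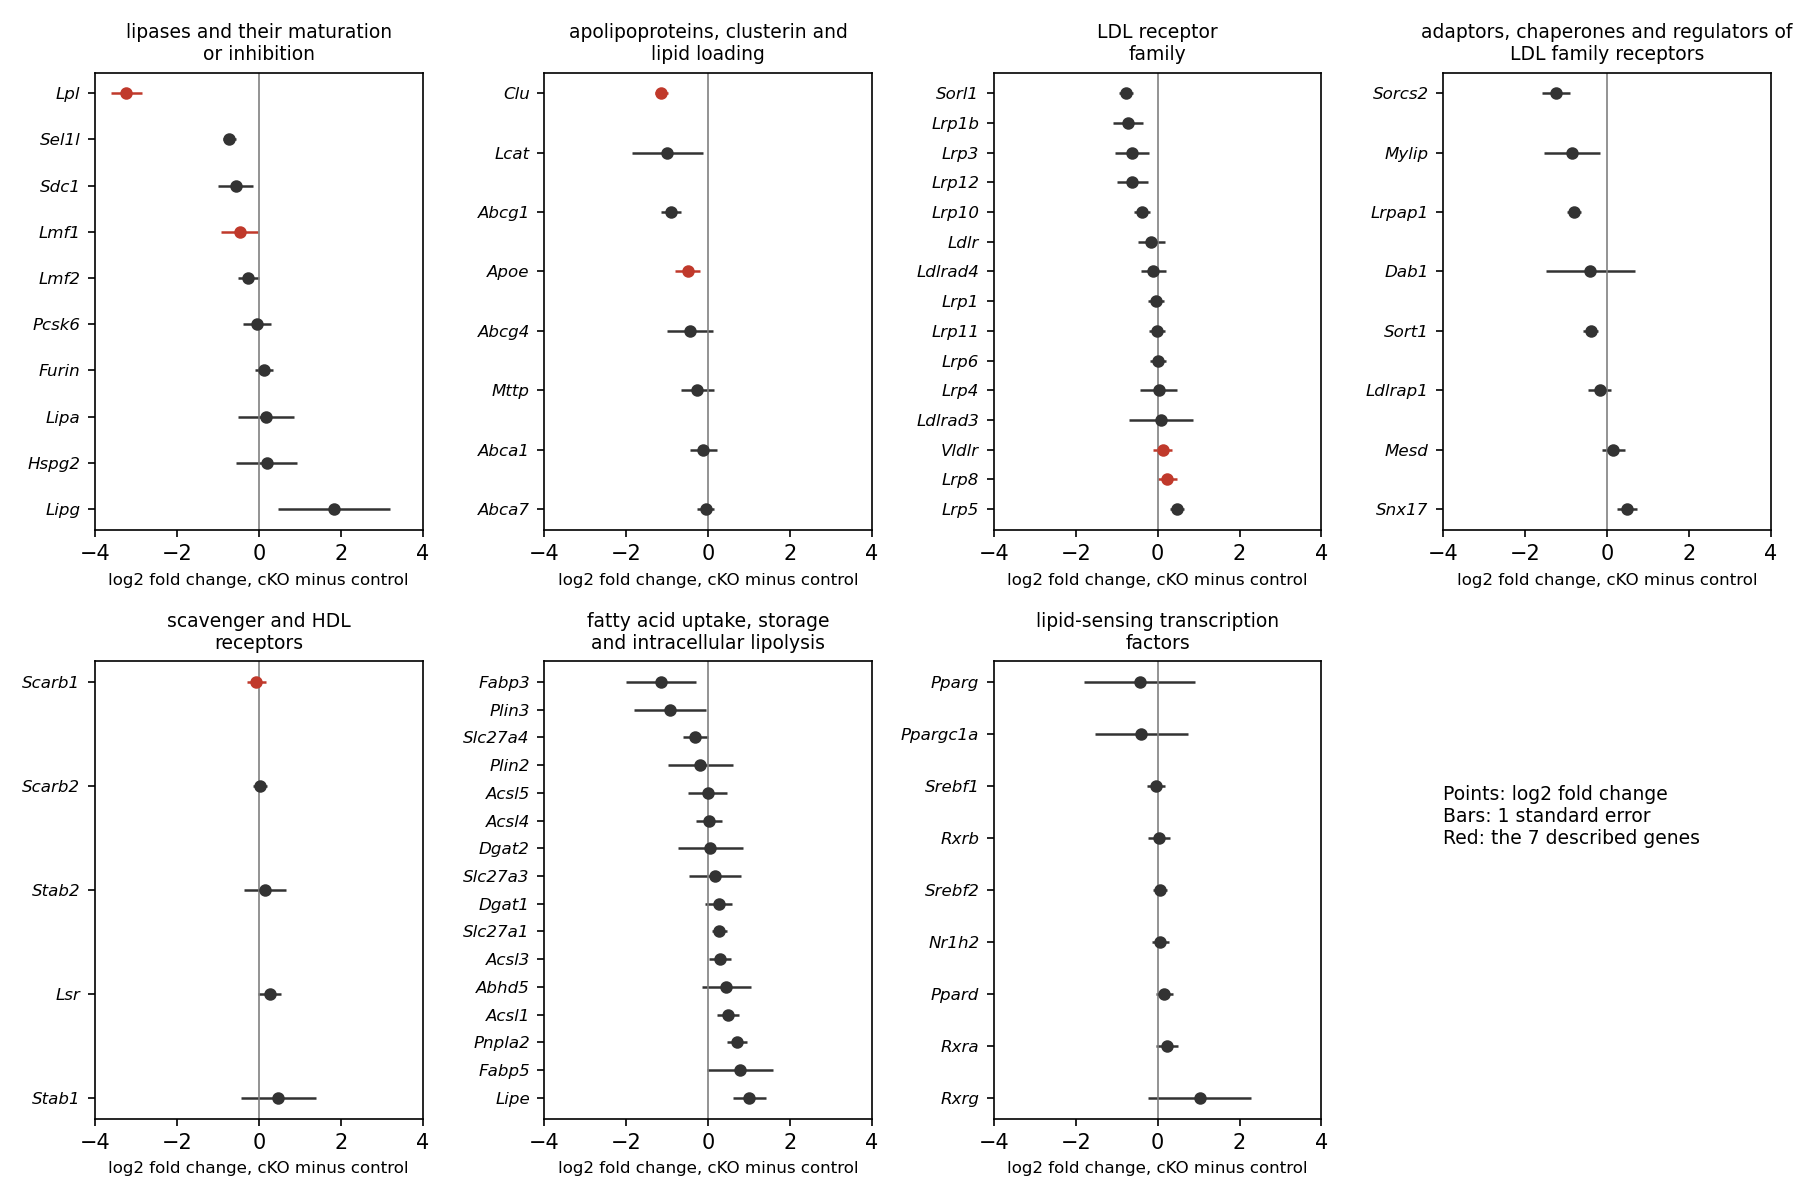
Log2 fold changes, cKO minus control, of the tested genes in the 7 lists whose average log2 CPM reached 2, with bars of 1 standard error and the 7 described genes in red. Lpl at -3.23 lies apart from the rest of its list, while Vldlr, Lrp8 and Scarb1 lie between -0.06 and 0.23.

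Genes were also ranked by how closely their profile over the 4 libraries followed that of Lpl or Clu, as the distance between centred log2 CPM values among 11618 genes (those whose average log2 CPM reached 2, without predicted genes, Riken clones and pseudogenes by symbol). The nearest to Lpl were Chga, for the granule protein chromogranin A (distance 0.31), Prkg1, for a cGMP-dependent kinase (0.38), and Rflnb, for a filamin-binding protein (0.50). Prkg1 had 45.6 and 37.6 CPM in controls and 2.96 and 3.88 CPM in cKO. The nearest to Clu were Rbm11 (0.08), Lhb, for the beta subunit of luteinizing hormone (0.10), and Tspan6 (0.11). Rbm11 was low, at 10.1 and 8.27 CPM in controls and 3.47 and 4.22 CPM in cKO, with a log2 fold change of -1.25 (SE 0.90). Tspan6 had -1.09 (SE 0.49). Lhb had 5144 and 4099 CPM in controls and 2069 and 2245 CPM in cKO. With 4 libraries such nearness is a description of these libraries.

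Markers of adipocytes and macrophages, which are known for making lipoprotein lipase or apolipoprotein E, and of endothelial cells, where the lipase acts, were measured in the same libraries. Adipocyte markers (4 genes) summed to 1.91 to 2.15 CPM in controls and 2.12 to 2.53 CPM in cKO. Macrophage markers (10 genes) summed to 2.49 to 15.6 CPM in controls and 1.16 to 5.45 CPM in cKO, with C1qa, C1qb, C1qc and Mrc1 at 0 in every library. Endothelial markers (8 genes) summed to 17.6 to 33.8 CPM in controls and 11.5 to 20.5 CPM in cKO, with Emcn at 0.

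Some of the other marker lists stood at different levels in the groups, and others overlapped. Somatotrope markers summed to 1133 and 2379 CPM in controls and to 2149 and 385 CPM in cKO. Thyrotrope markers summed to 22.3 and 16.1 CPM in controls and to 19.8 and 9.61 CPM in cKO. Stem and folliculostellate markers summed to 308 to 331 CPM in controls and 544 to 577 CPM in cKO. Of 6 tested genes 4 were higher and 2 lower, and Fabp7 was at 0. The 4 were Sox9 (1.34, SE 0.28), Krt18 (1.15, SE 0.17), Sox2 (0.64, SE 0.43) and Krt8 (0.61, SE 0.17). They are the higher side of the list only. Values of the 2 lower genes are not given here, so the 4 do not show a shift of the whole list. Most of the sum came from Krt18 (104 and 116 CPM in controls, 231 and 261 CPM in cKO) and Krt8. Krt8 had 109 and 117 CPM in controls and 166 and 178 CPM in cKO. The sum is thus no measure of the whole list. Prl, for the lactotrope hormone prolactin, had 312 and 583 CPM in controls and 1249 and 1271 CPM in cKO. All 6 gonadotrope markers were lower in cKO, and of these Nr5a1 (-0.06, SE 0.23) and Foxl2 (-0.29, SE 0.17), named after their values were seen, differed least. The part of these cell populations in the values of Lpl and Clu was not tested.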

How the data were processed

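The submitters' processing notes name STAR 2.5.1b, featureCounts 1.5.0-p1 and the mm10 build. They name no annotation release, no strand setting and no handling of multiply matching reads. The authors deposited estimated counts, of which 4.50% of values were not whole. Counts were rounded, filtered with filterByExpr (minimum count 10, minimum total 15), scaled with TMM and tested with edgeR 4.0.16 (quasi-likelihood F-test, two-sided, R 4.3.3), with Benjamini-Hochberg adjustment over 17349 genes. An SE is the log2 fold change divided by the square root of F. Log2 CPM for profiles had 0.5 CPM added. GENCODE M21 models, on the same build, were matched to 54495 identifiers without version.

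The 7 genes and all lists were chosen with earlier results of these data known. From each role list up to 4 genes with the smallest p were named, with the 3 nearest profiles to Lpl and to Clu (average log2 CPM at least 2) and the most abundant markers; others were named after their values were seen. The fits were checked on data simulated from these libraries. Alternatives were other scalings and filters, DESeq2 1.42.0, limma-voom (limma 3.58.1), a replicate block, each library left out, and another gene length. edgeR's newer method was added after seeing the data.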

Additional observations from a re-analysis of the deposited data

How the results depend on the processing

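Over the 12 alternatives the log2 fold change of Lpl was -3.31 to -3.15 and that of Clu -1.25 to -1.04. Calls were less stable. The count of 10 called genes became 943 with DESeq2, 256 with limma-voom, 253 without a filter, 3 under a minimum of 1 CPM in 2 libraries, 47 with edgeR's newer method and 2 to 107 with 1 library left out. Of the 7 genes, Lpl and Clu (2 genes) were called without a filter, with DESeq2, with limma-voom and with the newer method, and 0 to 2 with 1 library left out: both without either cKO library, and neither without either control. Where a group had a single library left, its spread was taken from the other group, and the genes tested were kept. The median of the 78 other genes was -0.14 to 0.20 with 1 library left out (0.20 without control replicate 2). The 9 of them past an unadjusted p of 0.05 became 14 with DESeq2 and 5 to 14 with 1 library left out (5 lower and 0 higher without control replicate 1, 6 lower and 8 higher without control replicate 2). The cause was not tested. Replicate numbers did not pair the libraries (correlation of deviations across genes -0.01), and the replicate block gave 7 called genes, with Lpl at -3.23 and Clu at -1.15. The cKO level of Lpl rests on 73 and 88 counts.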
